A study of Mus musculus with 6 samples.

Results

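The 10 genes described here code for the enzymes that set pyruvate dehydrogenase on or off and for proteins that bring fatty acids into the mitochondrion: Pdk1, Pdk2, Pdk3, Pdk4, Pdp1, Pdha1, Angptl4, Cpt1a, Cpt1b and Acadl. They are 10 of the 46983 genes in the authors' count table, matched by symbol. They were chosen by name, with their levels in these same libraries already known from an earlier analysis, so which genes are listed and how they lie between libraries is a description and supports nothing by itself. C2C12 is a mouse myoblast line that fuses into multinucleated myotubes in low serum. Wild-type C2C12 myotubes, differentiated in 2% horse serum, received either corticosterone at 1e-07 M, the main glucocorticoid of mice, or ethanol at 1 µL/mL as vehicle, for 24 h. Each treatment has 3 libraries of poly(A) RNA, named here by their labels: COR1, COR2 and COR3 for corticosterone, and VEH1, VEH2 and VEH3 for vehicle. They came from separate biological replicates of 1 cell line, per the submitters' design text.

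Pyruvate dehydrogenase turns pyruvate into acetyl-CoA and so commits glucose carbon to oxidation. Pyruvate dehydrogenase kinases phosphorylate its E1 alpha subunit and switch it off, and pyruvate dehydrogenase phosphatases remove the phosphate and switch it on. In skeletal muscle, fasting and glucocorticoids are known to raise Pdk4, while carnitine palmitoyltransferase 1 admits long-chain fatty acids to the mitochondrion for beta-oxidation.

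The labels of 2 libraries are in doubt, which bears on each result. Fkbp5, a glucocorticoid-induced gene whose product restrains the glucocorticoid receptor, was at 151, 36.9 and 135 CPM (read counts scaled to a common library size with TMM factors) in COR1, COR2 and COR3, against 36.9, 177 and 35.4 CPM in VEH1, VEH2 and VEH3. Tsc22d3, another induced gene, whose product is the leucine zipper protein GILZ, was at 218, 65.1 and 232 CPM in the corticosterone libraries, against 67.0, 264 and 76.2 CPM in the vehicle libraries. COR2 thus lay with VEH1 and VEH3, and VEH2 lay with COR1 and COR3. For that reason each gene is read by the labels, with a test, and also as COR1, COR3 and VEH2 beside COR2, VEH1 and VEH3. The second reading was formed from glucocorticoid-induced genes of these same libraries and is given as values, with no mean and no test. Over all genes kept by the count filter it did not part more genes than the labels did. By the labels 16.6% of those genes did not overlap, and in the second reading 4.89% lay higher and 4.74% lower without overlap. Libraries also fell into near pairs over all 14450 genes kept by the count filter: the 3 smallest of 15 root mean square differences in log2 CPM were those of COR1 with VEH3 (0.36), VEH1 with VEH2 (0.36) and COR2 with COR3 (0.40), and the next was 0.45. Only the pair of COR1 and VEH3 holds 1 library of each label, so a difference by label within a pair exists there alone. Total counts ran from 23877583 to 29928653 per library. All 8 myotube markers passed the filter. Of 6 adipocyte markers none passed, and Adipoq, Cidec, Lep, Retn and Cfd had no read in any library.

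Of the 10 genes, 9 passed the filter, with 358 to 8375 reads in a library. Cpt1b did not pass. By the labels, edgeR's quasi-likelihood test called 0 of the 9, beside 0% of the 14450 genes tested (adjusted p under 0.05). At an unadjusted p under 0.05 there were 0 of the 9 and 1707 of all genes, and DESeq2 called 0 of the 9 and 138 of all genes. 5 of the 9 had a positive and 4 a negative log2 difference (corticosterone minus vehicle), with a median of 0.01, beside 0.004 over all genes. Pdha1 was the 1 gene of the 9 whose CPM did not overlap between the labels, where 16.6% of all genes did not overlap. In the second reading, Pdk4 and Pdp1 were higher in each of COR1, COR3 and VEH2 than in COR2, VEH1 and VEH3. Of all genes, 4.89% lay higher without overlap in that reading and 4.74% lower, and none of the 9 lay lower. The split was part of how the genes were read, so these counts carry no weight as a test.

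**Figure D1:**
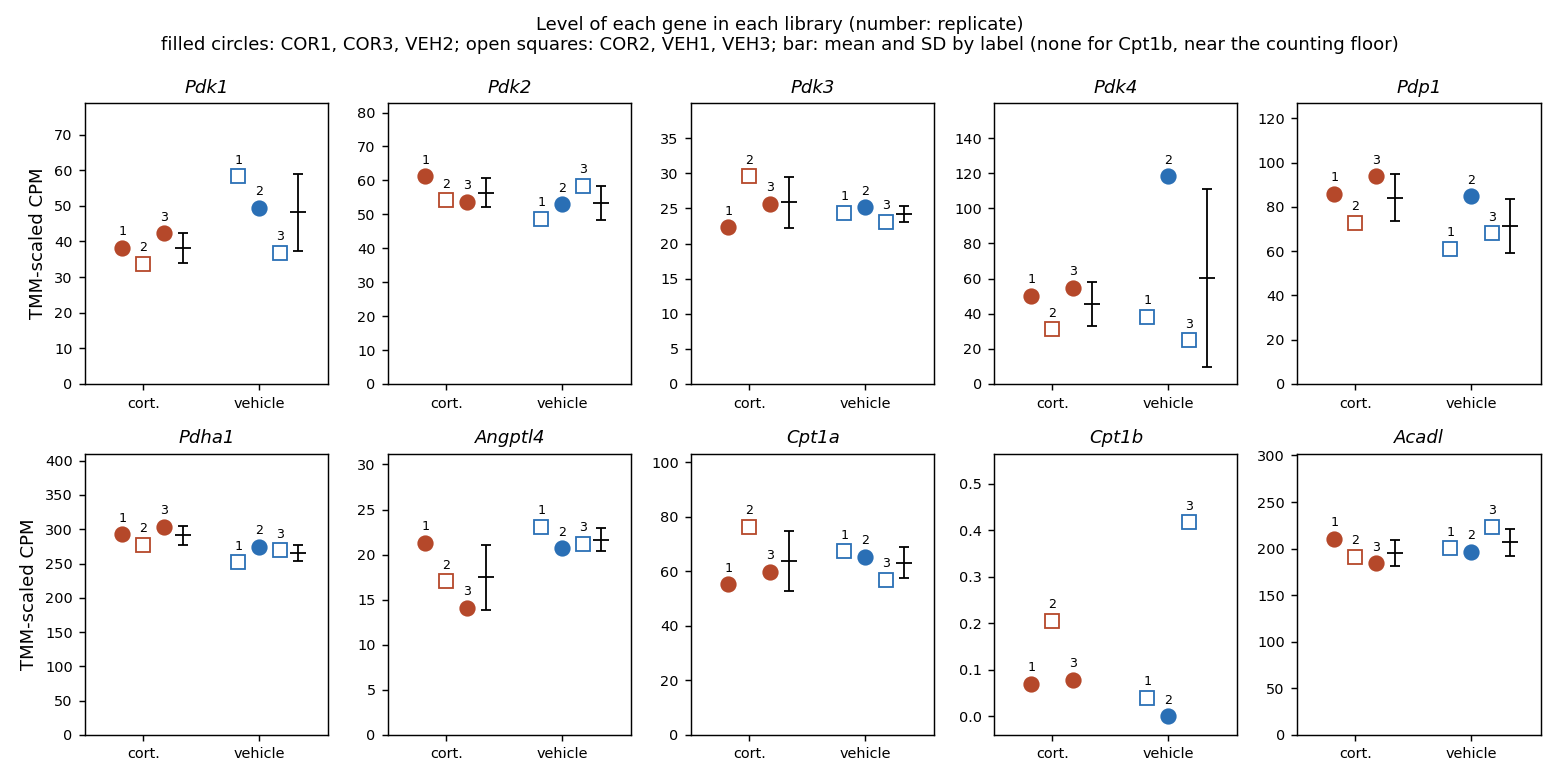
TMM-scaled CPM (y axes, from 0 except for a small margin under Cpt1b) of the 10 genes in the 3 corticosterone and 3 vehicle libraries, each numbered by replicate, with the mean and SD by label except for Cpt1b. Filled circles are COR1, COR3 and VEH2, and open squares are COR2, VEH1 and VEH3; the filled circles of Pdk4 and Pdp1 lie above all open squares, and Pdk4 reaches 118 CPM in VEH2.

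Pdk4 encodes the kinase isoform that starvation and diabetes raise in muscle (ENSMUSG00000019577, GRCm38 chr6:5483351-5496309, minus strand). It stood at 50.2, 31.2 and 54.7 CPM in COR1, COR2 and COR3, against 38.3, 118 and 24.8 CPM in VEH1, VEH2 and VEH3. VEH2 was the highest of all 6 libraries and VEH3 the lowest, a 4.78-fold range. The 3 corticosterone libraries lay between the lowest and the highest vehicle library. By the labels the mean was 45.4 ± 12.5 CPM with corticosterone and 60.5 ± 50.6 CPM with vehicle (SD, n = 3 each). The log2 difference was -0.42 ± 0.54 (SE, edgeR adjusted p = 0.765). It rested on VEH2: without that library it was 0.52 ± 0.28 (edgeR adjusted p = 0.689). With COR2 left out as well it was 0.73 ± 0.21 (edgeR adjusted p = 0.723). That last fit was chosen after seeing the data. It leaves out the libraries whose labels are in doubt, as the second reading marks them, so it carries no weight as a test. With VEH3 alone left out the log2 difference was -0.80 ± 0.45 (edgeR adjusted p = 0.36).

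Read the second way, Pdk4 was at 50.2, 54.7 and 118 CPM in COR1, COR3 and VEH2, beside 31.2, 38.3 and 24.8 CPM in COR2, VEH1 and VEH3. The sets did not overlap, and VEH2 stood far above the next library. Within the near pairs, Pdk4 was 1.75-fold higher in COR3 than in COR2, 3.09-fold higher in VEH2 than in VEH1 and 2.03-fold higher in COR1 than in VEH3. The same ratios were 3.66, 4.80 and 4.28 for Fkbp5. Each near pair holds 1 library of each set, so a ratio above 1 in each pair follows from the lack of overlap and adds nothing to it. For both genes the ratio was largest in the VEH2 and VEH1 pair. The COR1 and VEH3 pair is the 1 pair in which the ratio also runs from corticosterone to vehicle by the labels.

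The promoter window of Pdk4 is shown because Pdk4 had the widest range of the 9 genes, and windows of Pdk1 and Cpt1a because they alone held a match to the motifs searched. Each runs from 250 bases before to 50 bases after a RefSeq transcription start on GRCm38.p6, 5′ to 3′ on the gene's strand, with matches in capitals. The motifs were the glucocorticoid receptor hexamer AGAACA or TGTTCT and the nuclear receptor hexamer AGGTCA or TGACCT, each on both strands, and their paired forms: the first as an inverted repeat 3 bases apart, the second as a direct repeat 1 base apart. Each paired form contains its hexamer.
Pdk4 (chr6:5496229-5496528, minus strand): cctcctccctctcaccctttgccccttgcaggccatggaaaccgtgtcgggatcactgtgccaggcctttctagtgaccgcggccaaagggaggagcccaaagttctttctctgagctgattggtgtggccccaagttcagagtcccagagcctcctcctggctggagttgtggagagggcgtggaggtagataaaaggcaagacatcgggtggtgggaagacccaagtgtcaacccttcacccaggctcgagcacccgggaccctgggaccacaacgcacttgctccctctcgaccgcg
Pdk1, downstream start (chr2:71874654-71874953, plus strand): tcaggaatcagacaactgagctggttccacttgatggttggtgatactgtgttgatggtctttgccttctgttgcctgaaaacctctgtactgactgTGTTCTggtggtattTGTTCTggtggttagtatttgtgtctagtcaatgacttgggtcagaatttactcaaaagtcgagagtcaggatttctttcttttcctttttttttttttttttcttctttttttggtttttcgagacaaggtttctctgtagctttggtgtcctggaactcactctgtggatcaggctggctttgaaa
Cpt1a (chr19:3323051-3323350, plus strand): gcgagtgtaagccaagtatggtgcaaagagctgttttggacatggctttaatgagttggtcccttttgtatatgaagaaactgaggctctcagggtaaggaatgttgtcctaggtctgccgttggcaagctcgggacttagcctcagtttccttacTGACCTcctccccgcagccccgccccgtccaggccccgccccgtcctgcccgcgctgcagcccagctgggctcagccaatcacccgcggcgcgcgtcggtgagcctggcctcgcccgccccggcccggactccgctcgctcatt
Of the 10 genes, 7 had an entry, with 9 windows in all. Angptl4, Pdp1 and Cpt1b had none. The glucocorticoid receptor hexamer was in 19.0% of all 32851 windows and in 1 of the 9, that of the downstream Pdk1 start, where it occurred at 2 places. The nuclear receptor hexamer was in 16.3% of all windows and in the Cpt1a window alone among the 9. The inverted repeat (0.00913% of all windows) and the direct repeat (0.0396%) were in none of the 9. The Pdk4 window held none of these letters, which says nothing of sites elsewhere.

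Pdk1, Pdk2 and Pdk3 encode the other kinase isoforms. Pdk1, a known target of hypoxia-inducible factor (ENSMUSG00000006494, chr2:71873224-71903858, plus strand), was at 38.3, 33.7 and 42.3 CPM in the corticosterone libraries, against 58.3, 49.4 and 36.7 CPM in the vehicle libraries. VEH1 and VEH2, a near pair, were highest, and VEH3 fell among the corticosterone libraries. The means were 38.1 ± 4.29 and 48.2 ± 10.8 CPM (SD, n = 3 each) with corticosterone and vehicle, and the log2 difference was -0.34 ± 0.17 (SE, edgeR adjusted p = 0.463). With 1 library left out it ran from -0.51 ± 0.12 without VEH3 (edgeR adjusted p = 0.111) to -0.19 ± 0.16 without VEH1 (edgeR adjusted p = 0.932). The summed CPM of the 8 myotube markers was 16639, 15242 and 14674 in COR1, COR2 and COR3, against 10387, 11725 and 14656 in VEH1, VEH2 and VEH3. VEH1 and VEH2 were thus lowest for the markers and highest for Pdk1, and the part of myotube content in Pdk1 was not tested. Fewer myotubes and less RNA of a gene per myotube cannot be told apart in such bulk libraries.

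Pdk2, the isoform expressed in most tissues (ENSMUSG00000038967, chr11:95026258-95041354, minus strand), was at 61.3, 54.2 and 53.8 CPM in the corticosterone libraries, against 48.6, 52.9 and 58.4 CPM in the vehicle libraries. Pdk3 (ENSMUSG00000035232, chrX:93764607-93832201, minus strand) was at 22.3, 29.6 and 25.7 CPM in the corticosterone libraries, against 24.4, 25.2 and 23.0 CPM in the vehicle libraries. Both overlapped between the labels and in the second reading. Their log2 differences by label were 0.08 ± 0.10 and 0.10 ± 0.12 (SE, edgeR adjusted p = 0.737 and 0.749). COR2 had the highest Pdk3, and without it the Pdk3 difference was -0.01 ± 0.11 (edgeR adjusted p = 0.976).

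To set the isoforms side by side, CPM was divided by exon length (GENCODE M21). The kinase transcripts with the most CPM per kb were Pdk2, at 15.4 to 19.4 in the 6 libraries, and Pdk4, at 7.05 to 33.7. Pdk3 followed at 8.71 to 11.6 and Pdk1 at 4.34 to 7.50. The sum of Pdk1, Pdk2 and Pdk3 was nearly level, at 33.0, 33.0 and 32.5 CPM per kb in the corticosterone libraries and 32.4, 32.9 and 32.2 in the vehicle libraries. Adding Pdk4 gave 47.3, 41.9 and 48.0 CPM per kb in COR1, COR2 and COR3, against 43.3, 66.6 and 39.2 in VEH1, VEH2 and VEH3. Nearly all of the spread in kinase transcripts therefore came with Pdk4. Its share of the 4 kinases was 30.2, 21.2 and 32.4% in the corticosterone libraries, against 25.2, 50.6 and 17.97% in the vehicle libraries. Pdk4 was the most abundant isoform per length in VEH2, and Pdk2 was in each of the other libraries.

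**Figure D2:**
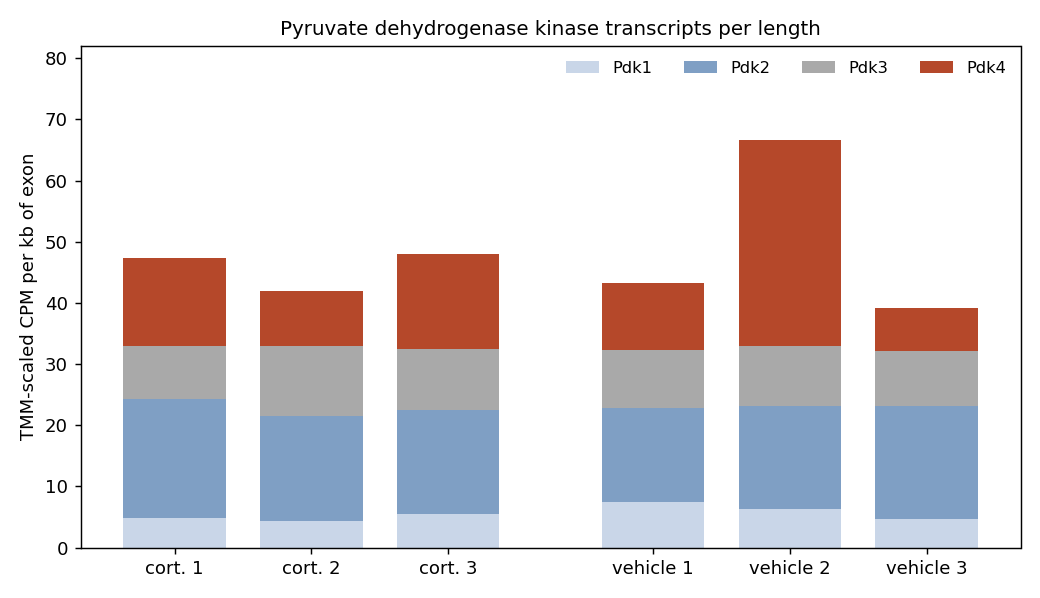
Stacked bars of the 4 pyruvate dehydrogenase kinase transcripts in TMM-scaled CPM per kb of exon (y axis), 1 bar per library, corticosterone left and vehicle right. The lower 3 segments (Pdk1, Pdk2, Pdk3) sum to between 32.2 and 33.0 in each library, and the Pdk4 segment runs from 7.05 in vehicle replicate 3 to 33.7 in vehicle replicate 2.

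Pdp1 encodes the catalytic subunit of the calcium-stimulated phosphatase that reverses the kinases (ENSMUSG00000049225, chr4:11958184-11966452, minus strand). It was at 86.0, 72.9 and 93.9 CPM in COR1, COR2 and COR3, against 61.2, 84.7 and 68.1 CPM in VEH1, VEH2 and VEH3. The labels overlapped, since VEH2 lay above COR2. By label the means were 84.3 ± 10.6 and 71.3 ± 12.1 CPM (SD, n = 3 each) with corticosterone and vehicle, and the log2 difference was 0.24 ± 0.14 (SE, edgeR adjusted p = 0.529). With both libraries numbered 2 left out it was 0.48 ± 0.12 (edgeR adjusted p = 0.661). That fit was chosen after seeing the data and leaves out the libraries whose labels are in doubt, so it carries no weight as a test. In the second reading the sets did not overlap, at 86.0, 93.9 and 84.7 CPM in COR1, COR3 and VEH2 beside 72.9, 61.2 and 68.1 CPM in COR2, VEH1 and VEH3. Pdp1 was 1.29-fold higher in COR3 than in COR2, 1.39-fold higher in VEH2 than in VEH1 and 1.26-fold higher in COR1 than in VEH3. Pdp1 and the kinase gene Pdk4 lay on the same side in each near pair, which follows from their lack of overlap in the second reading. The ratios were larger for Pdk4.

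Pdha1 encodes the E1 alpha subunit that the kinases phosphorylate (ENSMUSG00000031299, chrX:160122209-160138413, minus strand). It was at 292, 277 and 303 CPM in the corticosterone libraries, against 252, 274 and 269 CPM in the vehicle libraries. The labels did not overlap, by a margin of 277 CPM in COR2 over 274 CPM in VEH2. The means were 291 ± 13.2 and 265 ± 11.8 CPM (SD, n = 3 each) with corticosterone and vehicle, and the log2 difference of 0.13 ± 0.08 (SE) did not pass (edgeR adjusted p = 0.51). The ratios within the near pairs were 1.09 (COR3 over COR2), 1.09 (VEH2 over VEH1) and 1.09 (COR1 over VEH3). Its exons share 603 bases with Map3k15 on the opposite strand, a gene with 6 to 23 reads in a library.

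**Figure D3:**
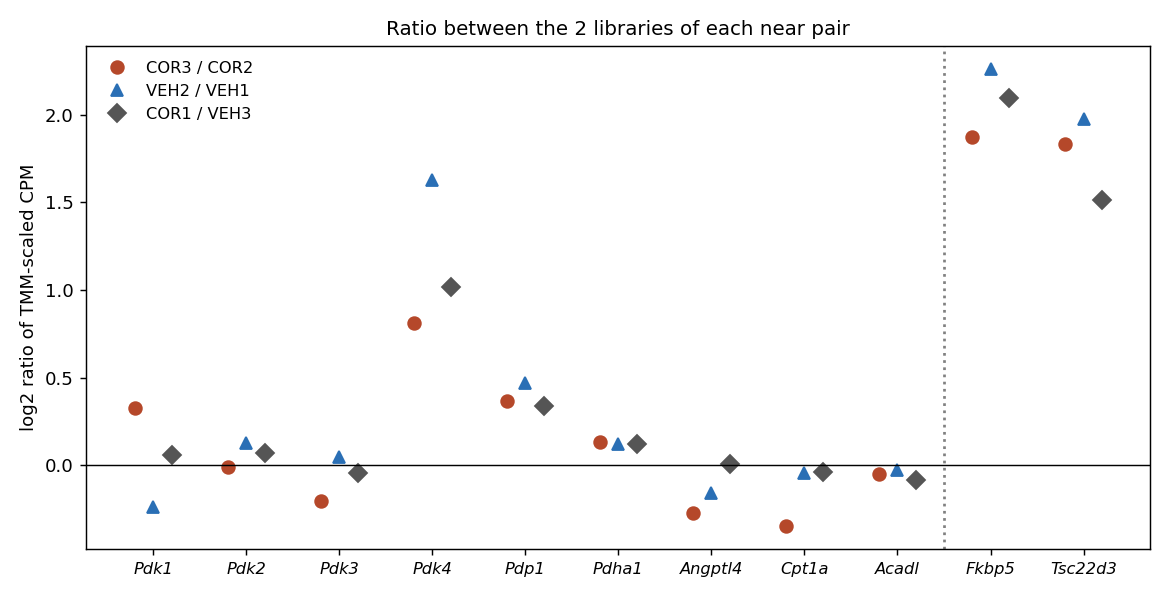
Log2 ratio of TMM-scaled CPM (y axis) between the libraries of each near pair, for the 9 genes that passed the filter and, right of the dotted line, Fkbp5 and Tsc22d3. Pdk4 (ratios 1.75, 3.09 and 2.03), Pdp1 (1.29, 1.39 and 1.26) and Pdha1 lie above 0 in all 3 pairs and Cpt1a and Acadl lie below 0 in all 3. For Pdk4, Pdp1, Fkbp5 and Tsc22d3 this follows from their lack of overlap in the second reading. In the same order of pairs the ratios were 0.79, 0.97 and 0.97 for Cpt1a and 0.97, 0.98 and 0.94 for Acadl, several of them close to 1. How many of all genes lie on 1 side in all 3 pairs was not counted.

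The other genes of the complex and its pyruvate supply were read as a list. The list of 14 genes of the pyruvate dehydrogenase complex and pyruvate supply, which includes 6 of the 10 genes, had 0 genes called by edgeR and 0 by DESeq2, and 1 with an unadjusted p under 0.05 by each. 9 lay higher and 5 lower with corticosterone, with a median log2 difference of 0.08, beside 0.004 over all genes. Over all 14450 genes, an unadjusted p under 0.05 was given to 1707 by edgeR and 1621 by DESeq2. Dld, the E3 subunit and the most abundant of the others, was at 203, 188 and 197 CPM in the corticosterone libraries, against 199, 194 and 195 CPM in the vehicle libraries (log2 difference -0.005 ± 0.07, edgeR adjusted p = 0.983). Pdpr, which encodes a regulatory subunit of the phosphatase, had the largest difference among the others, at 42.5, 33.6 and 32.9 CPM against 47.8, 49.4 and 39.8 CPM (-0.33 ± 0.13, edgeR adjusted p = 0.398). In the second reading, 3 of the 14 lay higher without overlap (beside 4.89% of all genes) and 0 lower (beside 4.74%). They were Pdk4 and Pdp1, whose levels were known when the genes were chosen, and Mpc1, a subunit of the mitochondrial pyruvate carrier. Mpc1 was at 3.56, 3.30 and 3.34 CPM in COR1, COR3 and VEH2 and at 2.95, 2.93 and 3.01 CPM in COR2, VEH1 and VEH3. It had only 72 to 102 reads in a library, and the gap between the sets was narrow (3.30 CPM in COR3 and 3.01 CPM in VEH3).

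Angptl4 encodes a secreted inhibitor of lipoprotein lipase and is a known target of PPARs and of the glucocorticoid receptor (ENSMUSG00000002289, chr17:33773750-33781830, minus strand). It was at 21.3, 17.0 and 14.1 CPM in COR1, COR2 and COR3, against 23.1, 20.7 and 21.2 CPM in VEH1, VEH2 and VEH3. COR2 and COR3, a near pair, were lowest, and COR1 lay within the vehicle range. The means were 17.5 ± 3.64 and 21.7 ± 1.25 CPM (SD, n = 3 each) with corticosterone and vehicle, and the log2 difference was -0.31 ± 0.15 (SE, edgeR adjusted p = 0.461). With 1 library left out it ran from -0.48 ± 0.12 without COR1 (edgeR adjusted p = 0.163) to -0.18 ± 0.13 without COR3 (edgeR adjusted p = 0.768). Unlike Fkbp5, Angptl4 was not higher on the same side of each near pair: the ratio was 0.83 for COR3 over COR2, 0.90 for VEH2 over VEH1 and 1.00 for COR1 over VEH3. Lpl, the lipase that Angptl4 inhibits, was at 50.1, 63.6 and 68.8 CPM in COR1, COR3 and VEH2 and at 49.8, 39.7 and 29.8 CPM in COR2, VEH1 and VEH3. COR1 and COR2 were thus almost level, and the sets only just failed to overlap.

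Cpt1a encodes the isoform of carnitine palmitoyltransferase 1 that predominates in liver (ENSMUSG00000024900, chr19:3322334-3385733, plus strand). It was at 55.2, 76.2 and 59.9 CPM in the corticosterone libraries, against 67.4, 65.4 and 56.8 CPM in the vehicle libraries. COR2 had the highest level and COR1 the lowest, so the vehicle range lay inside the corticosterone range. The log2 difference was 0.01 ± 0.13 (SE, edgeR adjusted p = 0.974), and it was -0.14 ± 0.10 without COR2 (edgeR adjusted p = 0.681). Cpt1b encodes the isoform that predominates in adult skeletal and heart muscle (ENSMUSG00000078937, chr15:89416405-89425863, minus strand). It had 2, 6 and 2 reads in COR1, COR2 and COR3, against 1, 0 and 10 reads in VEH1, VEH2 and VEH3. A count of 3, taken as the floor, equals 0.103 to 0.125 CPM, and 2 of the 6 libraries lay above it. Per length, Cpt1a was at 7.22 to 9.98 CPM per kb and Cpt1b at no more than 0.124. Of the exon bases of Cpt1b, 2744 of 3372 are also annotated to Gm44502, a same-strand gene with no row in the count table. How the counting treated reads in that overlap is not given in the sources used here, so the level of Cpt1b may be understated.

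Acadl encodes long-chain acyl-CoA dehydrogenase, an early enzyme of beta-oxidation (ENSMUSG00000026003, chr1:66830839-66863277, minus strand). It was at 210, 191 and 184 CPM in the corticosterone libraries, against 200.4, 196 and 223 CPM in the vehicle libraries. Its range of 1.21-fold was among the narrowest of the 9 genes, beside 1.21-fold for Pdha1, and the labels overlapped. The log2 difference was -0.08 ± 0.09 (SE, edgeR adjusted p = 0.708). Per length it was the most abundant of the 10 genes, at 91.9 to 111 CPM per kb, ahead of Pdha1 at 67.4 to 81.2.

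**Figure D4:**
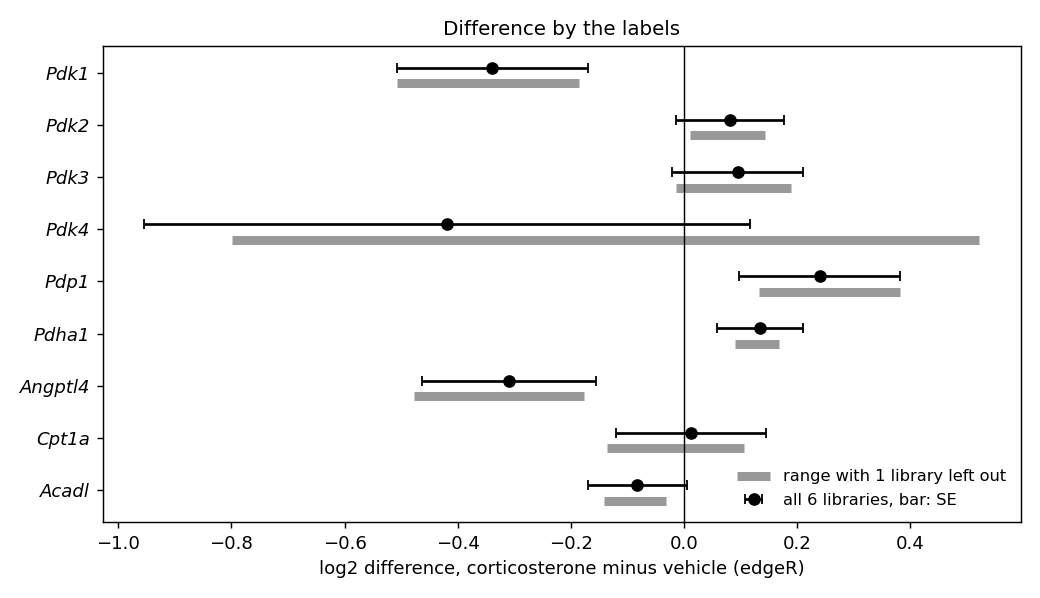
Log2 difference by the labels, corticosterone minus vehicle (x axis), for the 9 genes that passed the filter: points are the edgeR estimate with all 6 libraries and bars its SE, and grey bars span the estimates with 1 library left out. Pdk4 has the widest grey bar, from -0.80 to 0.52, and the grey bars of Pdk3, Pdk4 and Cpt1a cross 0.

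Other genes of fatty acid entry were read from lists set with earlier results of these libraries known. The counts in this and the later lists stand beside those over all 14450 genes. Over all genes, an unadjusted p under 0.05 was given to 1707 by edgeR and 1621 by DESeq2. By the labels, 16.6% of all genes did not overlap, 1215 higher and 1183 lower. The carnitine shuttle and its brake (10 genes, of which 9 passed the filter) had 8 higher and 1 lower with corticosterone, a median log2 difference of 0.19 beside 0.004 over all genes, and 0 genes called by edgeR (4 at an unadjusted p under 0.05) or by DESeq2 (2 at an unadjusted p under 0.05). By label, 7 of 8 myotube markers also lay higher with corticosterone (median log2 difference 0.23). Their summed CPM was nearly equal in VEH3 and COR3 (14656 and 14674). In these libraries Slc25a20 was at 42.4 and 49.3 CPM and Crat at 102 and 93.2 CPM. Of 6 proliferating myoblast markers (median -0.30), 4 lay lower, the cell cycle genes Mki67, Top2a, Ccnb1 and Cdk1. Pax7 and Myf5 lay higher (0.09 ± 0.13 and 0.14 ± 0.31). The part of cell content in this list was not tested. The brake gene Acaca differed by 0.002 and was lower under RLE scaling, which left 7 higher. Slc25a20, the carnitine-acylcarnitine translocase, did not overlap between the labels, at 46.9, 48.4 and 49.3 CPM in COR1, COR2 and COR3 against 38.2, 37.4 and 42.4 CPM in VEH1, VEH2 and VEH3 (log2 difference 0.29 ± 0.08, edgeR adjusted p = 0.364). Cpt2, the inner membrane transferase, and Slc22a5, the plasma membrane carnitine transporter, also lay higher without overlap (0.19 ± 0.07 and 0.23 ± 0.10, edgeR adjusted p = 0.398 and 0.416). Mlycd, which encodes the enzyme that breaks down the Cpt1 inhibitor malonyl-CoA, lay lower without overlap, at 15.5, 16.1 and 16.0 CPM against 22.0, 20.0 and 19.5 CPM (-0.37 ± 0.09, edgeR adjusted p = 0.364). Crat, carnitine acetyltransferase and the most abundant of the others, overlapped (0.13 ± 0.13, edgeR adjusted p = 0.694). In the second reading none of the list lay higher without overlap, and 1, Acaca, lay lower, beside 4.89% and 4.74% of all genes.

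Fatty acid release, uptake and activation (19 genes, 18 kept) had 10 higher and 8 lower with a median log2 difference of 0.06, and 0 genes called by edgeR (3 at an unadjusted p under 0.05) or DESeq2. Acsl3, an acyl-CoA synthetase and the most abundant, differed by -0.05 ± 0.16 (edgeR adjusted p = 0.902), and Mgll, monoacylglycerol lipase, by -0.51 ± 0.17 (edgeR adjusted p = 0.364). Mgll was at 19.3, 23.5 and 18.7 CPM with corticosterone against 35.7, 23.5 and 28.6 CPM with vehicle and did not overlap, although COR2 and VEH2 were almost level. Cd36, a fatty acid transporter, lay higher with corticosterone without overlap, at 69.5, 62.1 and 79.2 CPM against 42.1, 48.2 and 59.0 CPM (0.50 ± 0.14, edgeR adjusted p = 0.364). Fabp3, the muscle fatty acid binding protein gene, was at 37.6, 14.8 and 17.2 CPM in COR1, COR2 and COR3 against 30.4, 33.5 and 30.1 CPM in VEH1, VEH2 and VEH3. With all 6 libraries its log2 difference was -0.43 ± 0.32 (edgeR adjusted p = 0.606), and it overlapped because of COR1. With COR1 left out, edgeR called Fabp3 lower (-0.97 ± 0.11, adjusted p = 0.0442), in a fit that called 29 of 14607 genes. Fabp3 was the 1 call in these lists over the 6 fits without 1 library. In the second reading, 3 of the 18 lay higher without overlap (Lpl, Fabp4 and Fabp5) and 1 lower (Acsl3). Of all genes, 4.89% lay higher and 4.74% lower without overlap in that reading. Fabp4 had 3, 0 and 1 reads in COR2, VEH1 and VEH3, at or under the floor of 3.

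Mitochondrial beta-oxidation (16 genes, 15 kept) had 7 higher and 8 lower with a median log2 difference of -0.02, and 0 genes called by edgeR (2 at an unadjusted p under 0.05) or DESeq2. Hadha, the alpha subunit of the trifunctional protein, differed by 0.10 ± 0.10 (edgeR adjusted p = 0.704). Echs1, enoyl-CoA hydratase, was at 50.6, 51.9 and 59.0 CPM with corticosterone against 75.5, 71.3 and 55.0 CPM with vehicle (-0.32 ± 0.13, edgeR adjusted p = 0.405), highest in VEH1 and VEH2 as Pdk1 was. Acadvl and Hadhb lay higher and Acads lower without overlap in the second reading, beside 4.89% and 4.74% of all genes. A list of 12 genes held PPARs, their receptor partners and cofactors, and also Esrra, Nr3c1 (the glucocorticoid receptor gene), Foxo1, Foxo3 and Klf15. It had 5 higher and 7 lower, a median of -0.03 and 0 calls by either tool, with 0 at an unadjusted p under 0.05. Foxo3 differed by 0.04 ± 0.11 and Pparg by -0.21 ± 0.16 (edgeR adjusted p = 0.904 and 0.61). Klf15 lay higher and Foxo1 lower without overlap in the second reading, again beside 4.89% and 4.74% of all genes. Klf15 was at 2.79, 3.10 and 4.93 CPM in COR1, COR3 and VEH2 and at 0.548, 2.54 and 1.04 CPM in COR2, VEH1 and VEH3. COR1 and VEH1 were thus close.

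Genes known to respond to PPARs (17 listed, 14 kept, Pdk4, Angptl4 and Cpt1a among them) had 6 higher and 8 lower with a median log2 difference of -0.13, and 0 genes called by edgeR (5 at an unadjusted p under 0.05) or DESeq2. Among genes of at least 5 CPM, Acot1, an acyl-CoA thioesterase gene, had the largest difference, at 4.16, 3.94 and 2.55 CPM with corticosterone against 8.68, 4.65 and 6.60 CPM with vehicle (-0.90 ± 0.28, edgeR adjusted p = 0.364). Acot2, its close relative, also lay lower without overlap (-0.51 ± 0.17, edgeR adjusted p = 0.364). How the counting treated reads that fit both genes is not given in the sources used here. On the other side, 3 of the 14 lay higher without overlap: Cd36 and Slc25a20, given above, and Plin4, a lipid droplet protein gene. Of all 14450 genes, 1215 lay higher and 1183 lower without overlap between the labels. Plin4 was at 4.44, 3.90 and 7.42 CPM with corticosterone against 1.80, 3.52 and 1.96 CPM with vehicle (1.10 ± 0.35, edgeR adjusted p = 0.364). In the second reading Pdk4 was the 1 gene of the 14 without overlap, where 4.89% of all genes lay higher and 4.74% lower. Among the other fates of pyruvate (10 genes), 4 lay higher and 6 lower, with 0 called by either tool and 1 at an unadjusted p under 0.05. Ldha, lactate dehydrogenase A, differed by 0.13 ± 0.10 (edgeR adjusted p = 0.625) and the lactate transporter gene Slc16a1 by -0.37 ± 0.15 (edgeR adjusted p = 0.398).

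The genes most like Pdk4, Angptl4 and Cpt1a were found by the mean absolute difference over the 6 libraries in log2 CPM centred on each gene's mean, among 10639 genes of at least 5 CPM. For Pdk4 the nearest were Gpx3, a secreted glutathione peroxidase (0.17 log2 units), Edn1, endothelin 1 (0.18), Prg4, lubricin (0.22), and Pi15, a peptidase inhibitor (0.24), where the median gene lay 0.58 away. Gpx3 was at 203, 105 and 256 CPM in COR1, COR2 and COR3 against 192, 529 and 95.3 CPM in VEH1, VEH2 and VEH3, with the same highest and lowest libraries as Pdk4. For Angptl4 the nearest were Slc22a15 and Katnal1 (0.04 each), Dock11 (0.04) and Alox5 (0.04), with a median gene at 0.23. For Cpt1a they were Mfge8 (0.02), Zbtb45 (0.04), Nid2 (0.04) and Uggt2 (0.04), with a median gene at 0.18. The 6 libraries are of 1 cell line and fell into the near pairs above, so likeness over them is a description.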

How the data were processed

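Raw read counts per gene, as the authors deposited them for 46983 genes and 6 libraries, were the starting point. Per the submitters' processing notes the tools included HISAT2 2.0.5, HTSeq 0.6.1 and DESeq2 1.24.0, with the build mm10. Strand setting and annotation release are not stated there. Without strand, reads of overlapping genes cannot be separated. GENCODE M21 (GRCm38) held 98.95% of the gene identifiers and gave coordinates and exon lengths.

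Labels were compared with the quasi-likelihood test of edgeR 4.0.16 in R 4.3.3 (TMM scaling, filterByExpr leaving 14450 genes, no covariate, two-sided, Benjamini-Hochberg adjustment over those genes, threshold 0.05). The SE is the log2 difference over the square root of F, and SDs are over 3 libraries. The floor of 3 counts covers counting error only. The script was tested on simulated data.

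The member genes, lists and naming rule were chosen with earlier results of these data known. Named by rule were the 10 genes, Fkbp5, Tsc22d3, per list the most abundant other gene and that with the largest difference (at least 5 CPM), and 4 genes most like Pdk4, Angptl4 and Cpt1a (log2 of CPM plus 0.5). Other genes were named after their values were seen. Mymk is in the table as Tmem8c. Further marker sums, in CPM with corticosterone and with vehicle, were 210 to 225 and 245 to 251 (proliferating myoblast, 6 genes), 39.8 to 60.6 and 44.8 to 105 (fibroblast, 4 genes), at most 0.384 and 0.117 (endothelial, 3 genes) and at most 2.17 and 1.88 (macrophage, 3 genes).

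Alternatives were DESeq2 1.42.0, RLE scaling, a filter of 1 read, replicate number as a block, and fits without 1 library. A fit without both libraries numbered 2 was added after seeing the data.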

Additional observations from a re-analysis of the deposited data

How the results depend on the processing

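No alternative called any of the 9 genes kept. Of 99 estimates under the alternatives, 93 kept their direction and 6 turned. With 1 library left out, the log2 difference of Pdk4 ran from -0.80 to 0.52 (0.52 without vehicle replicate 2), that of Pdk3 from -0.014 (without corticosterone replicate 2) to 0.19, and that of Cpt1a from -0.14 (without corticosterone replicate 2) to 0.11, with -0.067 without vehicle replicate 3. With both libraries numbered 2 left out, an alternative chosen after seeing the data, they were 0.73 (Pdk4) and -0.11 (Cpt1a). The cause was not tested. Over all genes the count of calls was 0 with edgeR, 138 with DESeq2, 0 to 29 with 1 library left out (29 without corticosterone replicate 1 and 11 without vehicle replicate 3) and 3 with both libraries numbered 2 left out. In 2 lists, fatty acid release, uptake and activation and PPAR-responsive genes, the count was 0 to 1 with 1 library left out, the 1 being Fabp3 without corticosterone replicate 1. RLE scaling and the fit without the count filter gave 0 calls over all genes, as did the replicate block. With the replicate block the Pdk4 difference was -0.10 ± 0.61 (edgeR adjusted p = 0.972). The deviations of same-numbered libraries from their label means correlated over genes at -0.15, -0.27 and -0.32. Those means are of 3 libraries each and include the 2 whose labels are in doubt, so the correlations cannot show what the replicate numbers share. The 9 genes had 358 to 8375 reads in a library, and Cpt1b had 0 to 10, too few to compare the labels.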
